A study of Mus musculus with 7 samples.

Results

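The hypoxia-inducible factor (HIF) genes examined here were 10 rows of the deposited expression table, found by an exact match of the gene symbol among its 23930 genes. They cover the oxygen-regulated alpha subunits Hif1a and Epas1, their partner Arnt, the prolyl hydroxylases Egln1, Egln2 and Egln3, the asparaginyl hydroxylase Hif1an, the ubiquitin ligase subunit Vhl, and Vegfa and Ndrg1, both known as targets of HIF. The table holds bulk RNA from sorted green Pax7 reporter cells of mouse hind leg muscle, in 3 libraries from normocapnia (NC1 to NC3) and 4 from hypercapnia (HC1 to HC4). All mice carried the inducible Pax7-GFP reporter and were given tamoxifen, in both groups from 12 weeks of age, and cells were collected at 16 weeks after 4 weeks in room air or in high CO2. The strain was read as C57BL/6 throughout, an assumption, since the genotype label starts at C57BL/6 in NC1 and its last number goes up by 1 from library to library. Per the methods, the high-CO2 chamber was set to 10% CO2 with oxygen kept at the level of room air. The tibialis anterior and gastrocnemius muscles were injured with cardiotoxin, a toxin that destroys myofibers. Cells were sorted 3 days later from all muscles of the hind legs, so that muscles without an injection are included. The sample labels do not mention the injury, and the title of the table carries a time of 40 hours that was not resolved. Because Cre is driven by Pax7 and the reporter stays on once switched, green cells include progeny that no longer express Pax7.

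In cells with oxygen, prolyl hydroxylases mark the alpha subunits of HIF, the Vhl ligase then sends them for destruction, and Hif1an blocks their contact with coactivators. When oxygen is low these marks fail, the alpha subunits pair with Arnt and bind short hypoxia response elements, and genes of glycolysis, vessel growth and the hydroxylases themselves are switched on. The alpha subunits are thus controlled mostly as proteins, which these RNA data do not measure. In muscle, HIF is known for its part in the growth of vessels and in the balance between resting and dividing satellite cells.

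Values are RPM, read numbers scaled to a common library total from a panel that amplifies a single stretch of each gene, so they compare a gene between libraries and not genes with each other. Totals ran from 14527445 to 23388710 reads, and 3 reads, taken as the floor of detection, are worth 0.128 to 0.207 RPM. Xist, the noncoding RNA of the inactive X chromosome, was read at 445 to 701 RPM in NC1, NC2, HC1 and HC2 and at 0 to 0.125 RPM in NC3, HC3 and HC4, where the Y-linked gene Ddx3y stood at 103 to 206 RPM. Only NC3 stands for normocapnia among the libraries without Xist. Pax7, which defines satellite cells, was present in all 7 libraries but ran from 4.34 RPM in NC3 to 268 RPM in NC1. Macrophage markers were read in every library, with Lyz2 at 8354 to 29108 RPM, and the share of RNA that came from satellite cells was not established. The labels do not say which libraries came from separate animals, and p-values therefore measure the spread between these libraries alone.

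The sequence before the transcription start is shown for the alpha subunit that was called and for the hydroxylase with the widest range, since both are read against the same element. The RefSeq table (build GRCm38.p6) held 250 bases before the start for 8 of the 10 genes, in 10 windows. It held none for Epas1 and Ndrg1. The core of the hypoxia response element was searched as ACGTG or GCGTG on either strand, and 7 of these 10 windows held at least 1 match, where 38.6% of all 32851 windows did. In the windows below, read 5′ to 3′ along the gene, the capitals mark the matches.
Hif1a, plus strand, chr12:73907617-73907866: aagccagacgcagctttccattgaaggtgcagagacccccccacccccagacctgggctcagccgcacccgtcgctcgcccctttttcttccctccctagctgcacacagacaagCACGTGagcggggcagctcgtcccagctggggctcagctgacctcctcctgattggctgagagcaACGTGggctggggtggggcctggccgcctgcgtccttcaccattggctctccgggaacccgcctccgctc
Egln3, minus strand, chr12:54203875-54204124: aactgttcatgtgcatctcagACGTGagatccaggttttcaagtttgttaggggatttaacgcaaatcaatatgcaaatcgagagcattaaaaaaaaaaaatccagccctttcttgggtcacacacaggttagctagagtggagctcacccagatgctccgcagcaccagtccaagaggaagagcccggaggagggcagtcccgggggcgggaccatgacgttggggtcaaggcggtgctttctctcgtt
The Hif1a window held 3 matches. A pair of them, on opposite strands and 135 and 134 bases before the start, share the palindrome CACGTG, and the other lay 70 bases before it. The Egln3 window held a single ACGTG, 229 bases before the start. Arnt, Egln1 and Egln2 also held matches, Hif1an and Vhl held none, and of the 2 Vegfa windows the upstream one held none. A match of these letters is a description of the window and says nothing of binding in these cells. The bases after the start were not found in a reference transcript for Hif1a, nor for the Vegfa window with matches. That Vegfa window lies downstream of the other one, on the minus strand. Windows were not screened for coding or intron sequence, so 7 of 10 beside 38.6% is no measure of enrichment.

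To ask whether chronic hypercapnia changed the RNA of the HIF system, hypercapnia was compared with normocapnia with limma on log2(RPM + 1), fitted over all genes. A gene was called where its p before adjustment was under 0.05 and its fold change exceeded 1.5, the thresholds of the study. Of the 10 genes 1 was called higher, Hif1a, and 0 were called lower, where 1.43% of all genes were called higher and 1.14% lower, a balance that turned in edgeR, in DESeq2, with quantile normalization, without NC3 and in the libraries with Xist alone. The 10 genes had a median log2 fold change of 0.02, beside 0.16 for the 12504 genes that averaged 1 RPM or more. The 2 groups of libraries overlapped in all 10 genes, whereas they were apart with hypercapnia higher in 2.53% of all genes and apart with hypercapnia lower in 2.3%. After Benjamini-Hochberg adjustment limma called 0 genes of the table, with 1114 at an unadjusted p under 0.05, edgeR called 0 and DESeq2 29, none of them among the 10.

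Hif1a encodes the alpha subunit found in most cell types. NC1 to NC3 stood at 248, 130 and 128 RPM, and HC1 to HC4 at 269, 213, 381 and 499 RPM. All hypercapnia libraries but HC2 lay above the highest normocapnia library, and HC2 lay between NC1 and the other normocapnia libraries. The log2 fold change was 1.01 (SE 0.39, 95% interval 0.03 to 1.99), with a limma p of 0.0460 and an adjusted p of 0.915. The call rested on several libraries: when limma was refitted it was kept without NC1 (log2 fold change 1.32) or HC2 (1.21), and p passed 0.05 without NC2 (0.86), NC3 (0.85), HC1 (1.1), HC3 (0.93) or HC4 (0.80), so that the call was lost. In bulk RNA, more cells that express a gene and more of its RNA per cell cannot be told apart. With median-of-ratios scaling, which brings the median of all genes at 1 RPM or more from 0.16 to 0.04, the difference was 0.87 and called. The call was lost with the replicate number as a block (0.80), with Xist as a covariate (0.95), in libraries with Xist alone (0.41) and in those without it (1.76).

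Epas1, the alpha subunit HIF-2 alpha, is known for its high level in endothelial cells. It stood at 66.0, 33.9 and 46.6 RPM in normocapnia and at 17.4, 26.3, 170 and 96.8 RPM in hypercapnia. The hypercapnia libraries fell on either side of the normocapnia range, HC1 and HC2 below it and HC3 and HC4 above it. The difference between the groups was 0.16 (SE 0.88, 95% interval -2.04 to 2.36), an interval too wide to settle either direction.

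Arnt, the subunit with which both alpha subunits pair, was at 69.0, 142 and 50.0 RPM in normocapnia and at 95.6, 85.3, 66.2 and 70.3 RPM in hypercapnia. The hypercapnia libraries lay within the range of normocapnia, whose highest value was that of NC2. The log2 fold change was -0.01 (SE 0.38, 95% interval -0.95 to 0.93).

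**Figure D1:**
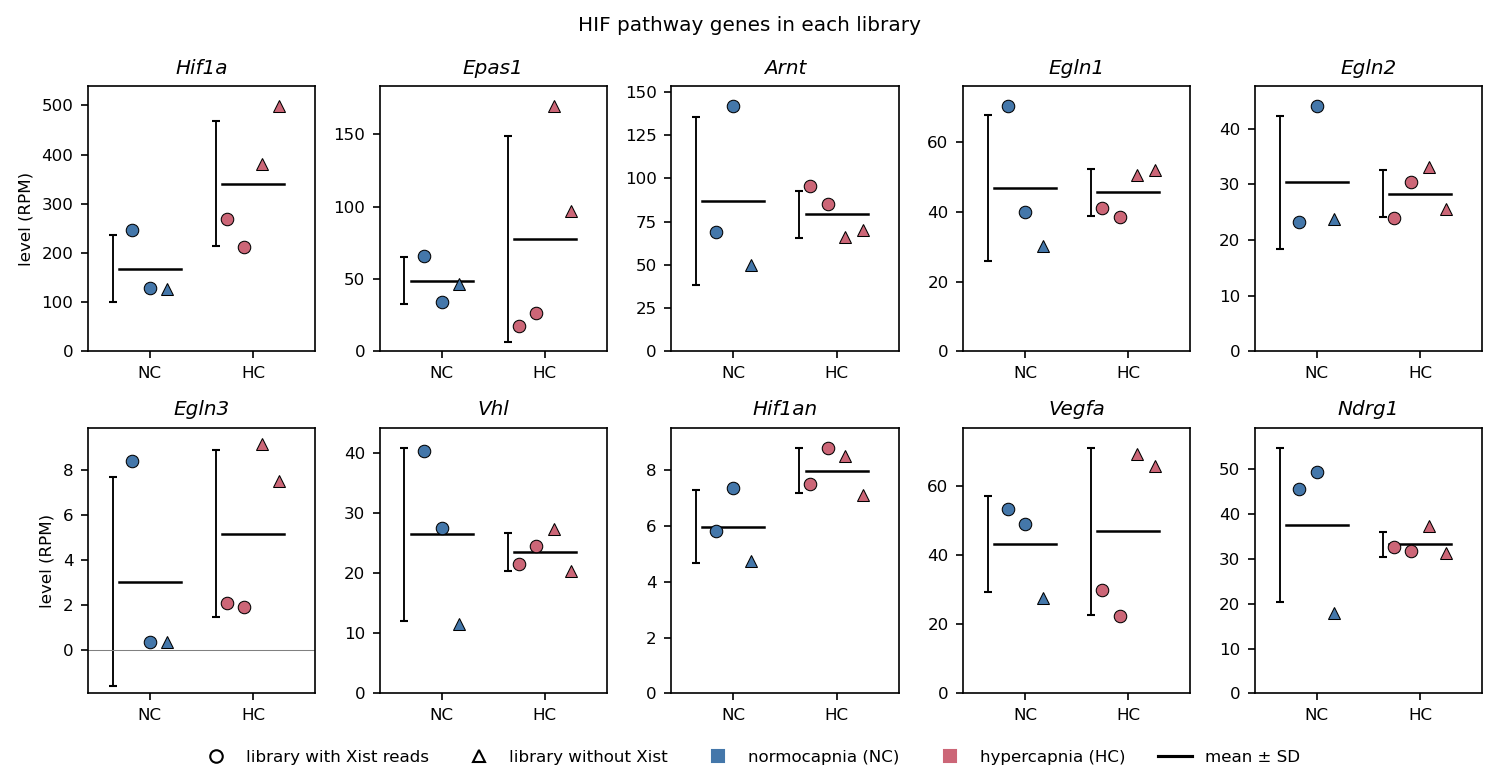
Level of each of the 10 HIF pathway genes in RPM (vertical axis, linear, a scale for each gene) in the normocapnia (NC, blue) and hypercapnia (HC, red) libraries. Points are single libraries in the order of their numbers, circles those with Xist reads and triangles those without, and black lines give the mean and SD (n = 3 and n = 4). The groups overlap in every gene, and HC3 and HC4 lie above HC1 and HC2 for Hif1a, Epas1, Egln1, Egln3 and Vegfa.

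The 3 prolyl hydroxylases differed in how widely they varied. Egln1, the main oxygen sensor of most cells, was at 70.6, 39.9 and 30.4 RPM in normocapnia and at 41.3, 38.7, 50.6 and 52.2 RPM in hypercapnia. The hypercapnia libraries lay between NC3 and NC1. Its log2 fold change was 0.04 (SE 0.30, 95% interval -0.72 to 0.80), and turned to -0.10 with median-of-ratios scaling. Egln2, which is not known as a strong hypoxia target, stood at 23.2, 44.1 and 23.8 RPM against 24.0, 30.5, 33.1 and 25.6 RPM. Apart from NC2 its libraries lay close together, and the difference was -0.05 (SE 0.26, 95% interval -0.70 to 0.61).

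Egln3, the hydroxylase known to be strongly induced by HIF, had the widest range of the 10 genes, 26.7-fold from the lowest to the highest library. Its level was 8.39, 0.342 and 0.344 RPM in the normocapnia libraries and 2.10, 1.91, 9.12 and 7.52 RPM in the hypercapnia libraries, each in the order of their numbers. NC1 lay with HC3 and HC4, whereas NC2 and NC3 were the lowest of the 7 libraries. The low values rested on 8 reads in NC2 and 5 reads in NC3, with exact 95% Poisson intervals of 0.148 to 0.674 RPM and 0.112 to 0.803 RPM that cover counting error only, and these lie below those of all other libraries. The log2 fold change was 1.04 (SE 0.92, 95% interval -1.25 to 3.33, limma adjusted p = 0.915), and it was not called. In leaving out 1 library it ran from 0.57, without NC2 or NC3, to 1.97 without NC1, where alone it was called. With pseudocounts of 5 and 0.1 RPM in place of 1 it was 0.41 and 1.82.

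Pax7 took a like order, at 268, 8.25 and 4.34 RPM in normocapnia and 21.5, 20.1, 79.5 and 59.7 RPM in hypercapnia. The sum of the 10 satellite cell markers was 604 to 3463 RPM in normocapnia and 779 to 1552 RPM in hypercapnia, with none of the 10 called and none at 0 in every library. In NC2 and NC3 most of the sum came from an abundant marker that varied less than the others, so the sum understates their range. In NC1 the sum was highest, and in HC3 and HC4 all 10 of these markers were above their levels in HC1 and HC2, as were 44.5% of all genes at 1 RPM or more. The part of these cells in the level of Egln3 was not tested.

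Hif1an, the asparaginyl hydroxylase also called FIH, showed the smallest ratio of the highest to the lowest library, 1.85-fold. Its level was 5.80, 7.35 and 4.75 RPM in normocapnia and 7.49, 8.79, 8.50 and 7.11 RPM in hypercapnia. Only HC4 reached into the normocapnia range, just under NC2. The log2 fold change of 0.38 (SE 0.14, 95% interval 0.02 to 0.74) did not reach the fold threshold, so the gene was not called, and its limma adjusted p was 0.915. Under quantile normalization it was 0.04 and under median-of-ratios scaling 0.25, where its p before adjustment was over 0.05.

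Vhl, which recognises the hydroxylated alpha subunits, stood at 40.4, 27.5 and 11.6 RPM in normocapnia and at 21.6, 24.6, 27.4 and 20.4 RPM in hypercapnia. All hypercapnia libraries lay between NC3 and NC2. The log2 fold change was -0.01 (SE 0.42, 95% interval -1.06 to 1.03), an interval that holds changes past the fold threshold in both directions.

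**Figure D2:**
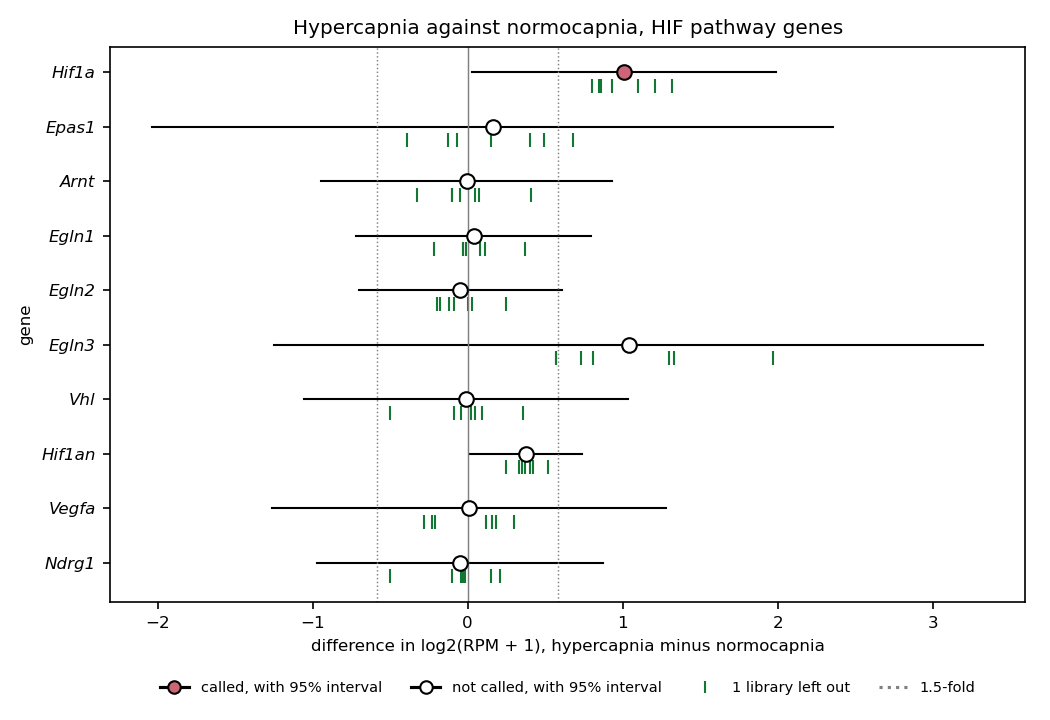
Difference in log2(RPM + 1) between hypercapnia and normocapnia (horizontal axis) for the 10 genes, with 95% intervals from limma (black lines), the 7 values obtained by leaving out 1 library each (green ticks) and dotted lines at a 1.5-fold change. Hif1a alone is filled as called, at 1.01, the interval of Hif1an ends at 0.74, and the intervals of the other 8 genes include 0.

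The targets Vegfa and Ndrg1 had group means close to each other. Vegfa, the growth factor that drives the sprouting of vessels, was at 53.4, 49.1 and 27.5 RPM in normocapnia and at 30.0, 22.3, 69.3 and 65.9 RPM in hypercapnia. As for Epas1, HC3 and HC4 lay above every normocapnia library, HC1 lay low within the normocapnia range, and HC2 lay below it. The log2 fold change was 0.01 (SE 0.51, 95% interval -1.26 to 1.28), and -0.13 with median-of-ratios scaling. Ndrg1, a stress-responsive gene long used as a readout of hypoxia, stood at 45.5, 49.4 and 17.8 RPM against 32.7, 31.8, 37.3 and 31.2 RPM. The 4 hypercapnia libraries lay close together between NC3 and the other normocapnia libraries. Its log2 fold change was -0.05 (SE 0.37, 95% interval -0.97 to 0.87).

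Within hypercapnia the libraries without Xist, HC3 and HC4, differed from HC1 and HC2 in several of these genes. Both lay above HC1 and HC2 for 5 of the 10 genes, beside 44.5% of all genes at 1 RPM or more. The ratio of the means was 6.11 for Epas1, 4.15 for Egln3, 2.59 for Vegfa, 1.83 for Hif1a and 1.29 for Egln1. Arnt was lower in both (0.755), beside 23.6% of the genes at 1 RPM or more. The other 4 genes overlapped. These ratios compare pairs of libraries and have no test. In a limma fit with exposure, Xist class and their interaction, chosen after the data had been seen, the interaction had p under 0.05 before adjustment in 4 of the 10 genes (Epas1, Vhl, Vegfa and Ndrg1) and in 21.2% of all genes. None of the 10 passed adjustment, and normocapnia without Xist is NC3 alone, which the fit assumes to vary like the other groups. The share of 21.2% covers all 23930 genes, with 2443 of them at 0 in every library, whereas each of the 10 averaged 1 RPM or more. A share over genes at 1 RPM or more was not computed for the interaction.

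Endothelial markers moved with the same split. The sum of the 9 endothelial markers was 257, 133 and 92.0 RPM in normocapnia and 78.9, 61.5, 615 and 454 RPM in hypercapnia, a 7.62-fold difference between the pairs of hypercapnia libraries. All 9 were higher in both HC3 and HC4, led by Pecam1, as were 44.5% of all genes at 1 RPM or more. None of the 9 was called between the groups and none was at 0 in every library. Sums of fibro-adipogenic markers (1563 to 3548 RPM against 1582 to 3753 RPM), with Dcn the highest and 6 of 9 markers higher in both HC3 and HC4, and of myofiber markers (239 to 4412 RPM against 345 to 2097 RPM), with Tnnt3 the highest and 6 of 7 higher, were also higher in HC3 and HC4 than in HC1 and HC2, by 2.11-fold and 3.31-fold. Macrophage marker sums, 12290 to 35050 RPM in normocapnia and 20130 to 25050 RPM in hypercapnia, were not, and of those 11 markers Adgre1 alone was called, as higher. Neutrophil marker sums were 65.7 to 221 RPM against 78.5 to 296 RPM, with Csf3r the highest and Mpo at 0 throughout, and were 2.57-fold higher in HC3 and HC4 than in HC1 and HC2, while sums of lymphocyte markers (highest Cd4) and of red blood cell markers (highest Alas2) stayed at or under 16.4 RPM, the latter 4.98-fold higher in HC3 and HC4 and the former 0.913-fold. Genes induced by tissue dissociation summed to 9089 to 13670 RPM against 8449 to 9535 RPM, led by Fos and Egr1, and of these 10 genes Atf3 alone was called, as higher, beside 1.43% of all genes as for Adgre1. The part of these cell types in the levels of Epas1 and Vegfa was not tested.

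**Figure D3:**
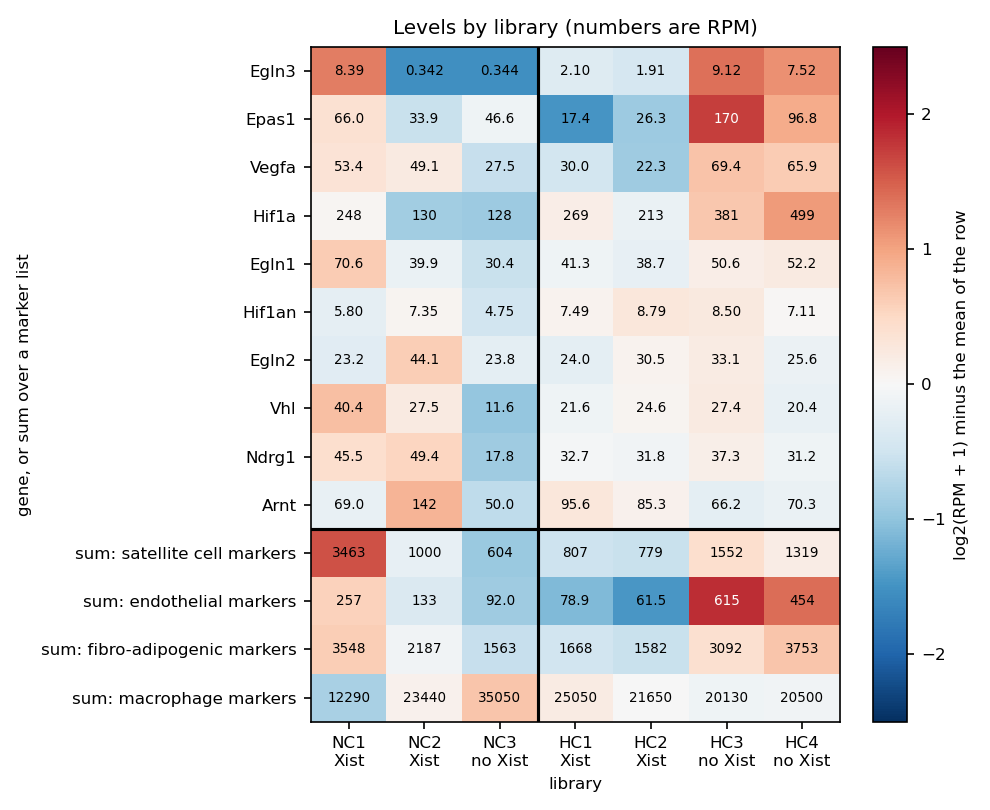
Levels of the 10 genes (rows above the line) and summed levels of 4 marker lists (rows below it) in each library (columns, normocapnia left of the line). Numbers are RPM, and colour gives log2(RPM + 1) minus the mean of its row, red above and blue below. NC1, HC3 and HC4 are red for Epas1, Egln3, the endothelial sum and the satellite cell sum, and for Vegfa NC2 is as well.

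Likeness of pattern was measured as Pearson's r of log2(RPM + 1) over the 7 libraries, against the 8229 genes that averaged 10 RPM or more. Most like Epas1 were Serpine2 (0.989), Prex2 and Ptprm (both 0.98), and most like Vegfa were Plvap (0.986), which encodes a protein of fenestrated endothelium, Ace (0.985) and Scn7a (0.981). For Egln3 they were Tjp1, Phlda3 and Gnao1 (each 0.995), for Ndrg1 Tax1bp1 (0.995), Syf2 and Ncapd3 (both 0.99), and for Hif1a Tial1 (0.975), Eef2kmt and Coq5 (both 0.972). An r over 0.9 was reached by 507 of these genes for Egln3, 397 for Ndrg1, 71 for Vegfa, 67 for Hif1a and 57 for Epas1. All genes were read in the same 7 libraries, so these values are descriptions. Among the 10 genes themselves the closest pairs were Vhl with Ndrg1 (0.919), Hif1a with Egln3 (0.879) and Egln1 with Egln3 (0.86). Epas1 and Vegfa stood at 0.804, and the lowest pair was Epas1 with Arnt (-0.497).

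Genes around the 10 were taken from lists written from general knowledge, but with earlier results of these data known. Their counts and medians are therefore descriptions and not independent of the data. Of 16 further regulators and partners of HIF in the table, 0 were called, and the groups were apart in 2 of them, both lower in hypercapnia, as were 2.3% of all genes. These were the coactivator Crebbp, at 96.3, 154 and 322 RPM against 82.8 to 89.2 RPM (-0.98, SE 0.40), and Tceb2, which encodes elongin B of the Vhl complex, at 350 to 567 RPM against 260 to 337 RPM (-0.48, SE 0.20). The members with the highest RPM, Rack1 and Hsp90ab1, had log2 fold changes of -0.08 and -0.12. The median of this list was -0.09. Crebbp was called lower in edgeR (-1.46), in DESeq2 (-1.51), with a minimum of 1 RPM, with a prior that follows the mean, with Xist as a covariate, in the libraries without Xist and without NC1, and Tceb2 without NC2. Without NC3 Crebbp was at -0.51 and Tceb2 at -0.26.

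Among 9 genes of the VEGF family and its receptors 0 were called, with a median of 0.29, and Pgf was at 0 in every library. Vegfd alone had groups apart, lower in hypercapnia (-0.50, SE 0.22), where 2.3% of all genes were. It was called with median-of-ratios scaling (-0.62) and in DESeq2 (-0.85), and was at -0.25 without NC2 and -0.08 in libraries without Xist. The neuropilins Nrp1 (0.34) and Nrp2 (0.58) had the highest RPM. The other Ndrg genes were not called either. Ndrg3 was apart, at 22.4 to 46.0 RPM in normocapnia and 47.5 to 49.2 RPM in hypercapnia (0.56, SE 0.23), where 2.53% of all genes were apart and higher. It was called without NC1 (0.80), with Xist as a covariate (0.62) and in the libraries without Xist (1.1, against NC3 alone), and was at 0.30 without NC3 and 0.28 in libraries with Xist. Ndrg2 (0.08) varied from 1.51 to 39.8 RPM, and Ndrg4 was at 0 in every library but HC4, where it lay under the floor.

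Glycolytic genes known as HIF targets held 3 called higher and 0 called lower among 15 in the table, where 1.43% of all genes were called higher and 1.14% lower. Their log2 fold changes had a median of 0.43, beside 0.16 for all genes at 1 RPM or more. Hk2, which traps glucose in the cell, was at 40.5, 49.5 and 51.2 RPM in normocapnia and at 73.1, 73.5, 76.4 and 80.2 RPM in hypercapnia (log2 fold change 0.68, SE 0.09, limma adjusted p = 0.492). Pfkl, a subunit of the enzyme that commits sugar to glycolysis, was at 4.46, 6.63 and 1.996 RPM against 10.2, 10.6, 10.1 and 11.4 RPM (1.21, SE 0.32, limma adjusted p = 0.836). Aldoc, an aldolase, was at 2.10, 0.684 and 0.688 RPM against 2.53, 3.87, 2.69 and 3.32 RPM (0.98, SE 0.26, limma adjusted p = 0.852). In all 3 the groups were apart, as they were in Pkm (0.58, SE 0.21), where 2.53% of all genes were apart and higher. Pkm and Ldha (0.98, SE 0.63) had the highest RPM of the list. Pkm was called without NC2 (0.71) and without HC1 (0.67). It was at 0.22 in libraries with Xist and 1.1 in those without it, against NC3 alone. The call of Hk2 was lost with median-of-ratios scaling (0.54), in edgeR (0.52), in DESeq2 (0.47) and without NC1 (0.58), whereas Pfkl lost its call only with the replicate number as a block (1.17). Aldoc, below 1 RPM in NC2 and NC3, lost its call with a pseudocount of 5 RPM (0.40), with quantile normalization (0.62), in edgeR without a filter (1.44), with the replicate block (0.95) and in the libraries with Xist alone (0.86).

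**Figure D4:**
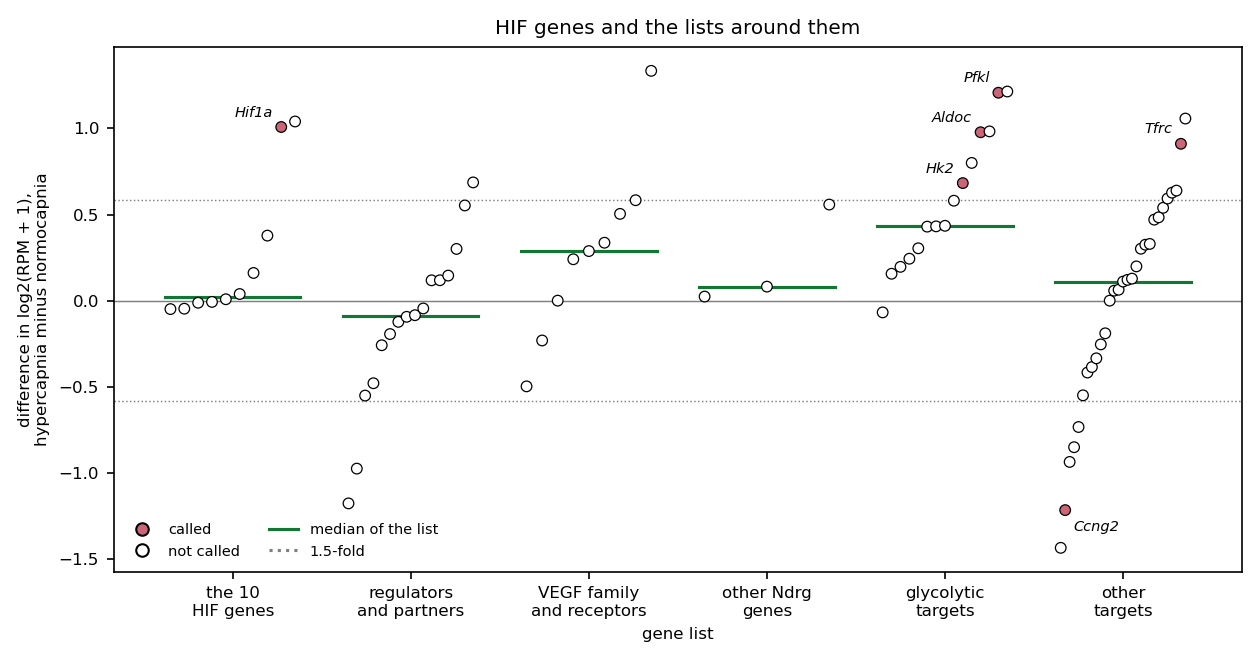
Difference in log2(RPM + 1) between hypercapnia and normocapnia (vertical axis) for the 10 HIF genes and for 5 lists of genes around them (horizontal axis, genes of a list in rising order). Filled points are called by limma and named, green lines are list medians and dotted lines mark a 1.5-fold change. The median is 0.02 for the 10 genes and 0.43 for glycolytic targets, of which Hk2, Pfkl and Aldoc are called.

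Of 29 other known targets 1 was called higher and 1 lower, where 1.43% and 1.14% of all genes were, and the median was 0.11. Tfrc, the receptor through which cells take up iron, stood at 52.2, 25.2 and 36.9 RPM against 84.0, 66.2, 59.9 and 70.0 RPM (0.91, SE 0.26, limma adjusted p = 0.8996). Ccng2, an atypical cyclin linked to cell cycle arrest, was at 40.8, 77.8 and 50.7 RPM against 27.7, 26.5, 19.7 and 18.8 RPM (-1.22, SE 0.26, limma adjusted p = 0.729). Both had groups apart, where 2.53% of all genes were apart and higher and 2.3% apart and lower. Tfrc lost its call in the libraries with Xist alone (1.02) and in those without it (0.80), and Ccng2 in those with Xist (-1.03). Car9, a carbonic anhydrase at the cell surface, was apart and higher (0.64, SE 0.26) and Lox, which crosslinks collagen, was apart and lower (-0.94, SE 0.39), neither of them called. Lox was called in edgeR, in DESeq2, with a minimum of 1 RPM, with the replicate block, with Xist as a covariate, in the libraries with Xist alone and without HC3, and Car9 with the replicate block, with Xist as a covariate, in the libraries with Xist alone and without HC4. Hmox1, which breaks down heme and was among the members with the highest RPM, was not called (-0.33, SE 0.81), and Epo was at 0 in every library.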

How the data were processed

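RNA of FACS-sorted Pax7-GFP cells was measured in 3 normocapnia and 4 hypercapnia libraries. The authors made AmpliSeq libraries, read them on an Ion GeneStudio S5 Plus and deposited RPM, reads assigned to panel amplicons scaled to a common total per library. Per the labels the Transcriptome Analysis Console was used. Not given in the sources used here are the aligner and the build. Of the columns of values, 0 were left unused. Whole reads were recovered for 100% of values within 0.05 reads and gave the totals. Groups were taken from the sample labels.

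All 23930 genes entered limma 3.58.1 (R 4.3.3) unfiltered, as log2(RPM + 1), with a constant prior and Benjamini-Hochberg adjustment. Fold changes on this scale understate the change of low genes. edgeR 4.0.16 (quasi-likelihood) and DESeq2 1.42.0 were run on recovered reads as alternatives. Scripts were tested on simulated data. The HIF genes and all lists were chosen with earlier results of these data known. Other alternatives were pseudocounts of 0.1 and 5 RPM, a minimum mean of 1 RPM, a prior that follows the mean, median-of-ratios and quantile scaling, a block on the replicate number, single libraries left out, and Xist as a covariate. Fits within the libraries with or without Xist (minimum 1 RPM), and their interaction with exposure, were added after the data had been seen. Genes were named by a rule: all 10 HIF genes, called genes, the 2 genes of highest mean RPM of each list (an order used for naming only), the 3 genes most like 5 of the HIF genes, and the top gene of each marker list with Pax7 and Xist. Other genes were named after their values were seen, among them those with groups apart that were not called, Pgf, Epo, Mpo and Adgre1. A gene that the rule would name is not reported here. Listed genes without a row in the table, such as Gapdh and Pgk1, were not analysed here. Promoter sequences are from RefSeq, build GRCm38.p6.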

Additional observations from a re-analysis of the deposited data

Results flagged for a closer look

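The interaction of exposure with Xist class, libraries without Xist (NC3, HC3, HC4) against those with it (NC1, NC2, HC1, HC2), had p under 0.05 before adjustment for 4 HIF pathway genes in a limma fit over all genes. None of them passed adjustment, and normocapnia without Xist is NC3 alone, which is assumed to vary like the other groups. For Vegfa the log2 fold change was -0.96 with Xist and 1.27 without it, a difference of 2.23 (SE 0.26, 95% interval 1.46 to 2.99, limma adjusted p = 0.0521). Ndrg1 went from -0.54 to 0.90, a difference of 1.44 (SE 0.17, limma adjusted p = 0.0511). Epas1 went from -1.11 to 1.44, a difference of 2.55 (SE 0.81, limma adjusted p = 0.216), and Vhl from -0.52 to 0.97, a difference of 1.49 (SE 0.42, limma adjusted p = 0.177). The median of all genes at 1 RPM or more moved too, from -0.17 with Xist to 0.76 without it, so that the values without Xist of Ndrg1 and Vhl lay near that median. An interaction with p under 0.05 before adjustment was found for 21.2% of all genes, and for 766 genes after adjustment, none of them among the 10.

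NC3 is the lone normocapnia library without Xist, so that its own traits and those of its class cannot be told apart, and leaving it out leaves no test. Of the 7 libraries it had the fewest reads (14527445) and the fewest genes at 1 RPM or more (10619). Its 10 most abundant genes held 16.6% of its RPM, beside 8.4% to 12.1% in the other libraries. In leaving out each of the other 6 libraries, Vegfa (2.02 to 2.43) and Ndrg1 (1.32 to 1.57) kept a limma p under 0.05 before adjustment. Epas1 did so only without NC2 (3.02) and Vhl only without NC2 (1.76) or HC4 (1.69). With median-of-ratios scaling the limma differences were 1.35 for Vegfa (adjusted p = 0.109), 0.58 for Ndrg1, 1.67 for Epas1 and 0.64 for Vhl, and with quantile normalization 1.5 (adjusted p = 0.0938), 0.53, 2.03 and 0.41, with p under 0.05 before adjustment for Vegfa alone. In NC3, Vhl and Ndrg1 were at their lowest of all 7 libraries, and the endothelial sum was 92.0 RPM beside 615 and 454 RPM in HC3 and HC4. The part of cell makeup in these differences was not tested.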

How the results depend on the processing

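Hif1a stayed positive under all 20 alternatives, at 0.41 to 1.76, and kept its call in 11 of them. The call was lost, besides the libraries named in the report, with the replicate block (0.80), with Xist as a covariate (0.95), and in libraries with Xist alone (0.41) or without it (1.76). The count of HIF genes called was 0 with the replicate block and with Xist as a covariate, 3 in libraries without Xist, where 4976 of the 23930 genes were called, and 0 to 2 in leaving out 1 library. The replicate numbers are not shown to pair the libraries: deviations from the group means correlated at -0.349, 0.503 and -0.0443 for numbers 1 to 3. Hif1an stayed positive throughout and uncalled. Genes near 0 changed sign. With median-of-ratios scaling, quantile normalization and DESeq2, Egln1 was at -0.10, -0.09 and -0.12 and Vegfa at -0.13, -0.09 and -0.02, and edgeR gave Egln1 -0.07 with and without a filter. With the replicate block Epas1 was -0.13, Arnt 0.05, Egln1 -0.03, Vhl 0.05 and Vegfa -0.21, and with Xist as a covariate Epas1 -0.13, Arnt 0.12, Vhl 0.11, Vegfa -0.08 and Ndrg1 0.06. In libraries with Xist alone Epas1 was -1.11, Egln1 -0.40, Egln3 -0.24 and Vegfa -0.96, the last called (limma adjusted p = 0.407), and in those without it Arnt was 0.44, Egln2 0.28, Vhl 0.97 and Ndrg1 0.90, and the called genes were Egln1 (0.74), Vegfa (1.27) and Egln3 (2.79), in a fit whose normocapnia arm is NC3 alone and whose spread comes from HC3 and HC4, beside medians over all genes at 1 RPM or more of -0.17 with Xist and 0.76 without it. In leaving out 1 library the differences ran from -0.39 to 0.68 for Epas1, -0.33 to 0.41 for Arnt, -0.22 to 0.37 for Egln1, -0.20 to 0.25 for Egln2, -0.50 to 0.36 for Vhl, -0.28 to 0.30 for Vegfa and -0.50 to 0.21 for Ndrg1. The cause was not tested.

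Counts of calls in the lists around them also moved. Regulators had 1 with a filter at 1 RPM or a prior that follows the mean, 2 in edgeR with and without a filter, DESeq2 and with Xist as a covariate, and 6 in libraries without Xist. The VEGF family had 1 in DESeq2, with median-of-ratios scaling and in libraries with Xist, and 3 in those without. Glycolytic targets had 1 in edgeR without a filter and with the replicate block, and 8 in libraries without Xist. Other targets had 4 with the filter and both scalings, 5 with the replicate block and in edgeR without a filter, 6 in edgeR with a filter, DESeq2, with Xist as a covariate and in libraries with Xist, and 10 in those without. Over all genes calls were 1049 in edgeR without a filter, 1304 in DESeq2, 1316 with Xist as a covariate, 1015 in libraries with Xist and 4976 without, beside 615 here. Of the 615, 343 were higher and 272 lower, against 294 and 508 in edgeR with a filter, 407 and 642 without it, 333 and 362 with quantile normalization, 383 and 632 in libraries with Xist, 4089 and 887 in those without, 519 and 785 in DESeq2, 235 and 381 without NC3 and 1495 and 495 without NC1. Leaving out 1 library gave 0 to 4 for regulators, 0 to 1 for the VEGF family, 3 to 4 for glycolytic targets, 2 to 6 for other targets and 376 to 1990 over all genes, the last without NC1. Among the 10 HIF genes, depth limits Egln3, whose lowest libraries rest on 5 and 8 reads, and listed genes under 1 RPM are limited in the same way.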
